A study of Mus musculus with 4 samples.

Results

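The transforming growth factor beta (TGF-beta) system was followed here through 9 genes of the 32285 in the count files: the ligand genes Tgfb1, Tgfb2 and Tgfb3, the latency gene Ltbp4, the receptor genes Tgfbr1, Tgfbr2 and Tgfbr3, and the target genes Tgfbi and Smad7. They were taken by gene symbol, and their raw UMIs (unique molecular identifiers, the molecules counted per cell) were read by library and by lineage, to ask which cells transcribe the ligands, the receptors and the targets. The cells came from brown fat (BAT) of mice and were its stromal vascular fraction, that is, the tissue's cells other than its fat-laden adipocytes. Each of 4 droplet libraries stood for its own group, and the study describes a pool of 3 mice behind a library. WT was C57BL6/J at 10 weeks of age. The db/db mice, which lack a working leptin receptor and become obese and diabetic, were taken at 8 weeks (8-week db/db) and 16 weeks (16-week db/db), and the fourth group was fed a high-fat diet (HFD). The labels give C57BL6/J for all 4 groups and an age of 10 weeks for HFD, while the study's methods start that diet at 10 weeks of age. By those methods the mice were male and fasted before harvest. With 1 library per group no test between groups was possible, so all intervals below are 95% counting intervals and leave out the spread between mice and preparations.

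TGF-beta ligands are made as inactive precursors. They leave the cell bound to a latency peptide and often to a latent TGF-beta binding protein, which fixes them in the matrix until integrins or proteases release them. The free ligand is caught by the type II receptor, which then phosphorylates the type I receptor and, through it, the transcription factors SMAD2 and SMAD3. In adipose tissue TGF-beta is known for restraining adipocyte differentiation and for driving matrix production by fibroblasts, and macrophages are a known source of the ligand.

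The genes lie on 8 chromosomes of the GRCm38 mouse genome, and all 9 are protein-coding in the GENCODE annotation. Tgfb1 spans chr7:25687002-25705077 on the plus strand, Tgfb2 chr1:186622792-186705989 on the minus strand and Tgfb3 chr12:86056745-86079041 on the minus strand. Ltbp4 spans chr7:27305136-27337692 on the minus strand. The receptor genes are Tgfbr1 at chr4:47353222-47414931 (plus), Tgfbr2 at chr9:116084293-116175360 (minus) and Tgfbr3 at chr5:107106570-107289629 (minus). Of the targets, Tgfbi spans chr13:56609523-56639562 on the plus strand, and the position of Smad7 is given with its values. For Tgfbr3, 3 other annotated genes (Gm42900, Gm43422 and Gm43423) overlap it on the same strand, so its counts are less certain there.

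The 250 bases before the RefSeq start (GRCm38.p6) are shown for 4 of the genes, since their RNA was divided between lineages: Tgfb1 and Tgfbi, at their highest in macrophages, and Tgfb2 and Tgfbr2, lower in them than in stromal cells. Of the 9 genes, 6 have such a window in the RefSeq table used. The letters of 5 motifs were searched on both strands, and matches are in capitals: the GC box GGGCGG, the TATA box TATAAA, the SMAD box CAGAC, the AP-1 motif TGANTCA and the PU.1 motif GAGGAAG. The Tgfb1 window (chr7:25686752-25687001, plus strand) held 5 GC boxes and no TATA box, and the Tgfb2 window (chr1:186705990-186706239, minus strand) held a TATA box 31 bases before the start, 2 SMAD boxes and no GC box. The Tgfbi window (chr13:56609336-56609585, plus strand) held 2 SMAD boxes and 1 GC box, and the Tgfbr2 window (chr9:116175364-116175613, minus strand) held 1 SMAD box and 1 PU.1 motif. Among 32851 promoter windows of this length, 32.7% held the GC box, 12.4% the TATA box, 42.2% the SMAD box, 6.75% the AP-1 motif and 10.6% the PU.1 motif, so each of these matches is common, and none is evidence of a bound factor.
Tgfb1: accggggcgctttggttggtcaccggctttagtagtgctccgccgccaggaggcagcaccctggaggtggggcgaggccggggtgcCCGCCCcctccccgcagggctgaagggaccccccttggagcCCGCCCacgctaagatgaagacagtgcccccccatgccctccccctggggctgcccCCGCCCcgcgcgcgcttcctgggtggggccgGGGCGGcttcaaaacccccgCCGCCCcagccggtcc
Tgfb2: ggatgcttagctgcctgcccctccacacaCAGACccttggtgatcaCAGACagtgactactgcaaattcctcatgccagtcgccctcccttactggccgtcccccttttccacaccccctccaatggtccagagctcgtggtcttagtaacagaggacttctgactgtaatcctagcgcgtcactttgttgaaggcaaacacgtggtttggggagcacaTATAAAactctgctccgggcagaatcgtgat
Tgfbi: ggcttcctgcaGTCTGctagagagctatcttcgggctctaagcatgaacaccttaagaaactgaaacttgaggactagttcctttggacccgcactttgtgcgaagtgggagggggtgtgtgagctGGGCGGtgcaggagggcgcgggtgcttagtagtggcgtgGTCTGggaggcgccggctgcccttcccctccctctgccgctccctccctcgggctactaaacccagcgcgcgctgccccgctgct
Tgfbr2: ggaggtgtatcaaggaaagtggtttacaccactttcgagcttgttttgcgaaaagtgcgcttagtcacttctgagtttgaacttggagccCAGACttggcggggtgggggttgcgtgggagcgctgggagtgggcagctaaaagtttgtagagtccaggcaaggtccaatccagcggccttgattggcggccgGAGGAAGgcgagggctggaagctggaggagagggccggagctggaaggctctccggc

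Lineages were set by gates on raw marker UMIs, with none of the 9 genes among the markers. After limits on genes, UMIs and mitochondrial share, 5944 cells of WT, 11648 of 8-week db/db, 5833 of 16-week db/db and 5462 of HFD were kept, with 26558173 to 53420105 UMIs per library. Macrophage gates held 1283, 3148, 2460 and 1694 of them in that order and stromal gates 4175, 5477, 1127 and 1464. Endothelial gates held 17, 81, 1281 and 1206, so WT gave no usable endothelial level, and T and NK gates reached 50 cells in 8-week db/db (89) and 16-week db/db (66) only. Between 3.53% (WT) and 17.8% (HFD) of cells carried markers of more than 1 lineage and were set apart. Of 65 pairs of an independent check marker and a library, 62 had their highest level in the lineage the marker stands for. The exceptions were Cd34, which stromal cells also express, in 3 libraries. Several traits of the libraries moved with the groups. In 16-week db/db, Xist RNA stood at 207 CPM (CPM is the level unit used throughout, the UMIs of a gene scaled to a common total for the group) against under 1 CPM in the other 3 libraries, and RNA of Y-linked genes at 17.7 CPM against 164 to 188, although the mice are described as male. The mitochondrial share of UMIs had a median of 0.799% in 16-week db/db and 10.5% in HFD, and 31.3% of HFD barcodes were kept. Ucp1, the uncoupling protein gene of brown adipocytes, stood at 58.5 CPM in HFD against 0.333 to 1.95 in the others, and the nuclear RNA Malat1 at 11003 CPM in 16-week db/db against 27269 to 28719. Their part in the values below was not tested.

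**Figure D1:**
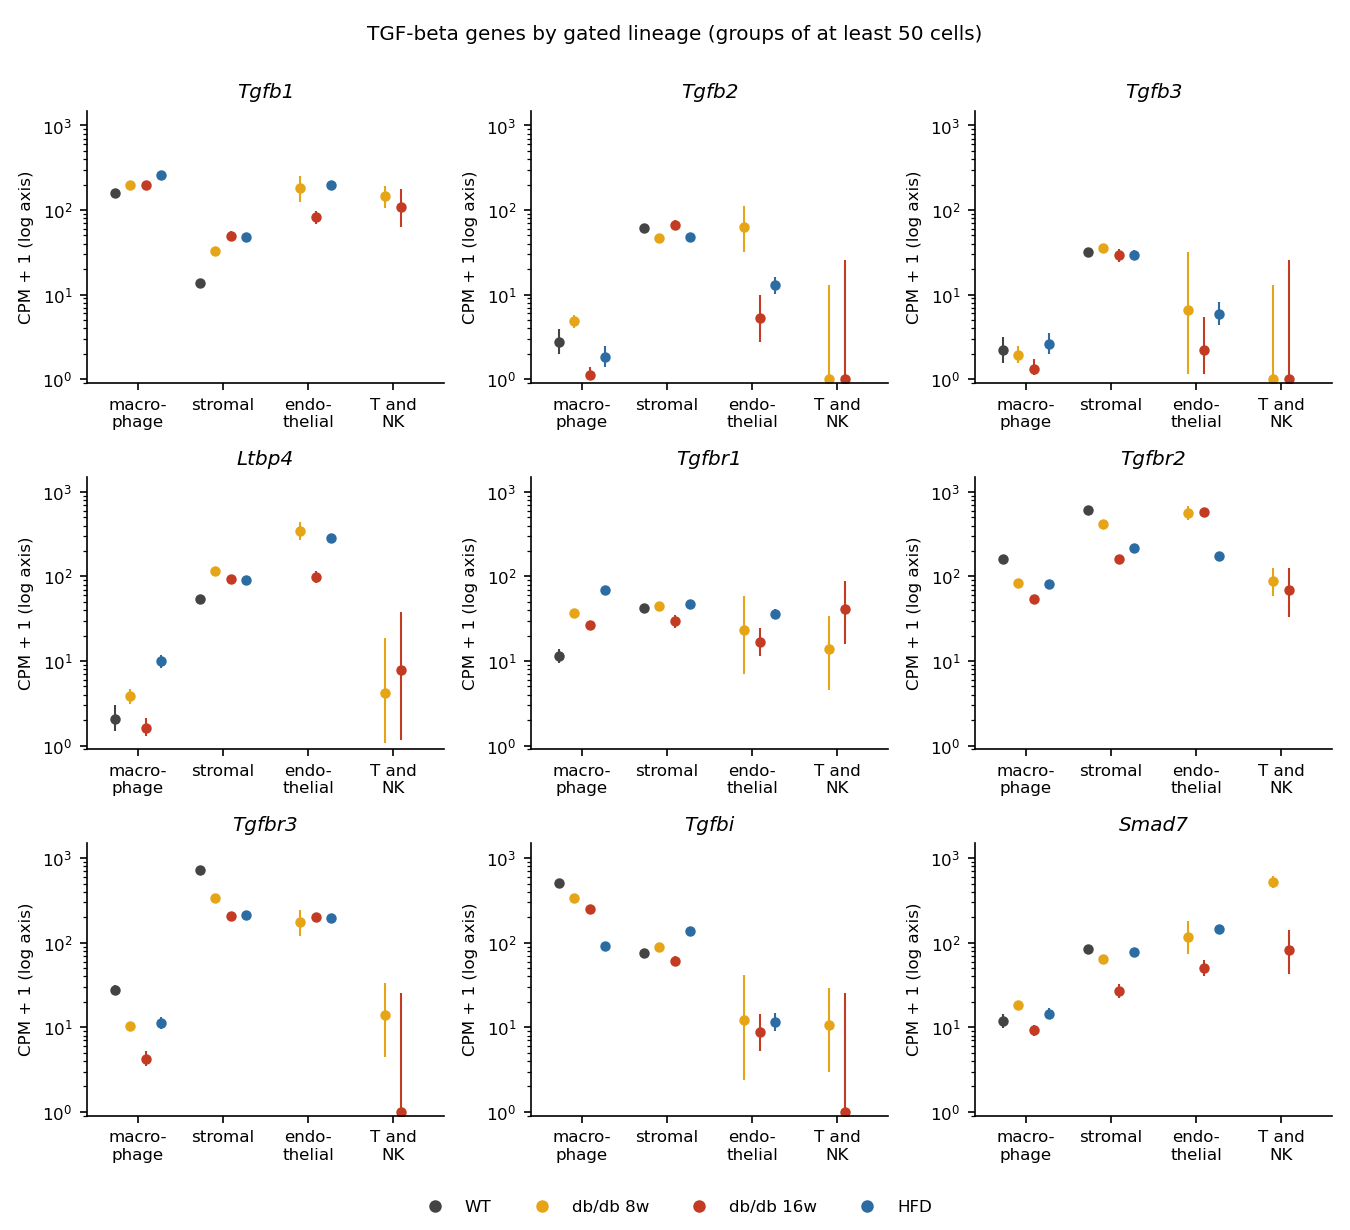
Level of each of the 9 genes by gated lineage (x axis) and library (colour). The y axis is CPM + 1 on a log scale, points are UMIs summed over the gated cells, and bars are exact Poisson 95% intervals. In WT, Tgfb1 and Tgfbi stood higher in macrophages than in stromal cells, and Tgfb2, Tgfb3 and Tgfbr3 stood over 10 times higher in stromal cells than in macrophages in each library.

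The highest level of most of the genes lay in stromal or endothelial cells, and that of Tgfb1 and Tgfbi in macrophages. Levels were averaged as log2(CPM + 10) over the libraries with at least 50 gated cells of a lineage. By this measure 4 of the 9 genes had their highest level in stromal cells (Tgfb2, Tgfb3, Tgfbr1 and Tgfbr3), against 20.2% of the 10117 genes that reached 20 CPM in a group. Endothelial cells held the highest level of 2 (Ltbp4 and Tgfbr2; 24.5% of all genes), macrophages of 2 (Tgfb1 and Tgfbi; 15.4%) and T and NK cells of 1 (Smad7; 22.2%). Neutrophils, gated in sufficient number in 8-week db/db only (99 cells), held none (17.8% of all genes). The order was close for Tgfbi, where macrophages stood at 8.04 and neutrophils at 8.03, and for Tgfbr1, where stromal cells stood at 5.63, neutrophils at 5.50 and macrophages at 5.33. For Tgfbr2 endothelial cells, which lack a WT value, stood at 8.63 and stromal cells at 8.30. Without the 16-week db/db library its highest level moved to stromal cells, which then held 5 genes and endothelial cells 1. The order was wide for Tgfbr3, at 8.38 in stromal cells, 7.64 in endothelial cells and 4.39 in macrophages.

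Tgfb1 encodes the TGF-beta 1 ligand, whose release by macrophages of obese mice the study asked about. In macrophage-gated cells it stood at 159.5 CPM in WT (between 151 and 168 by its 95% interval), 196 CPM in 8-week db/db (190 to 202), 199 CPM in 16-week db/db (192 to 205) and 262 CPM in HFD (253 to 271). In stromal cells of the same libraries it stood at 12.8, 31.8, 49.0 and 47.2 CPM. Macrophages were thus above stromal cells in 4 of 4 libraries, by 12.4-fold in WT, 6.16-fold in 8-week db/db, 4.06-fold in 16-week db/db and 5.55-fold in HFD. The log2 ratio of macrophages to stromal cells was 3.64 in WT (3.48 to 3.79), 2.62 in 8-week db/db (2.52 to 2.73), 2.02 in 16-week db/db (1.82 to 2.23) and 2.47 in HFD (2.32 to 2.63), and the intervals of the 3 libraries of obese mice all lay under that of WT. The narrower gap went with the stromal side, where Tgfb1 differed from WT by more than in macrophages. Stromal cells carried 0.734% (WT), 2.66%, 1.73% and 3.602% of the macrophage level of 5 macrophage check markers, and 8.04%, 16.2%, 24.6% and 18.0% of the macrophage level of Tgfb1. Single markers reached 5.17% (Aif1 in 16-week db/db) and 5.501% (Aif1 in HFD). The part of macrophage RNA in the stromal Tgfb1 level was not tested.

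Macrophages were not the only abundant source of Tgfb1 RNA. Endothelial cells stood at 179 CPM in 8-week db/db (123 to 253), 80.6 CPM in 16-week db/db (67.5 to 95.6) and 198 CPM in HFD (186 to 209), and T and NK cells at 145 CPM in 8-week db/db (106 to 194) and 108 CPM in 16-week db/db (61.5 to 175). The 27 WT and 30 HFD cells of the T and NK gate stood at 305 CPM (225 to 404) and 249 CPM (156 to 378), the WT value above that of WT macrophages. The endothelial level was below that of macrophages by 2.47-fold in 16-week db/db and by 1.33-fold in HFD, and in 8-week db/db the interval of the log2 ratio, -0.68 to 0.37, included 0. In HFD the endothelial excess over stromal cells, 4.19-fold in the gate as used, came to a log2 ratio of 0.72 when no marker UMI of another lineage was allowed in a cell. The log2 ratio of macrophages to stromal cells was 2.29 under that setting. Endothelial cells of HFD thus lay further below macrophages there than by the 1.33-fold of the gate as used.

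Against WT, Tgfb1 in macrophages was higher in 3 of 3 libraries of obese mice, and in none by 2-fold. The log2 ratio was 0.30 in 8-week db/db (0.21 to 0.39), 0.32 in 16-week db/db (0.23 to 0.41) and 0.72 in HFD (0.62 to 0.81), that is 1.23-, 1.246- and 1.64-fold. The median gene of the same comparisons stood at 0.05, -0.10 and 0.21. The 8-week db/db value depended on how cells were weighted, since with each cell thinned to 1000 UMIs it fell to 0.02. In stromal cells the ratio was larger, at 1.31 (1.14 to 1.48), 1.93 (1.69 to 2.18) and 1.88 (1.68 to 2.08), or 2.48-, 3.82- and 3.68-fold.

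Tgfb1 differed between the PVM and LAM gates by under 1.5-fold within a library, in no constant direction. Perivascular macrophages (PVMs, gated on Lyve1, Folr2 and other genes of resident macrophages) made up 84.9% of macrophages in WT, 53.0% in 8-week db/db, 17.4% in 16-week db/db and 7.14% in HFD. Lipid-associated macrophages (LAMs, gated on the marker genes Trem2, Cd9, Gpnmb, Spp1, Itgax, Mmp12 and Atp6v0d2) made up 0.857%, 19.2%, 55.04% and 40.02%. In PVMs Tgfb1 stood at 154 CPM in WT (145 to 164), 165 in 8-week db/db (156 to 174), 183 in 16-week db/db (162 to 206) and 311 in HFD (264 to 365). In LAMs it stood at 219 CPM in 8-week db/db (207 to 231), 193 in 16-week db/db (185 to 201) and 245 in HFD (233 to 257), and WT had 11 LAM-gated cells, too few for a level. Macrophages in none of the subset gates made up 12.7%, 26.8%, 26.7% and 49.4% of the 4 libraries in the order of WT, 8-week db/db, 16-week db/db and HFD, the largest group in HFD, and stood at 183 CPM (161 to 208), 211 (199 to 223), 225 (209 to 241) and 276 (262 to 291). LAMs thus exceeded PVMs of the same library by 1.33-fold in 8-week db/db (log2 ratio 0.41, 0.30 to 0.52), were level with them in 16-week db/db (0.07, -0.11 to 0.26) and were below them in HFD (-0.35, -0.59 to -0.10). Within PVMs the ratio to WT was 0.10 (-0.02 to 0.21) in 8-week db/db, 0.25 (0.05 to 0.44) in 16-week db/db and 1.01 (0.76 to 1.26) in HFD, and the HFD value rests on 121 cells. Monocyte-gated cells, counted at 58 in HFD and at 32 or fewer elsewhere, stood at 340 CPM in HFD (269.6 to 423). Cycling LAMs, those in which 6 cell cycle genes summed to 2 UMIs or more, stood at 226 CPM against 216 in other LAMs in 8-week db/db, 178 against 205 in 16-week db/db and 205 against 257 in HFD.

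**Figure D2:**
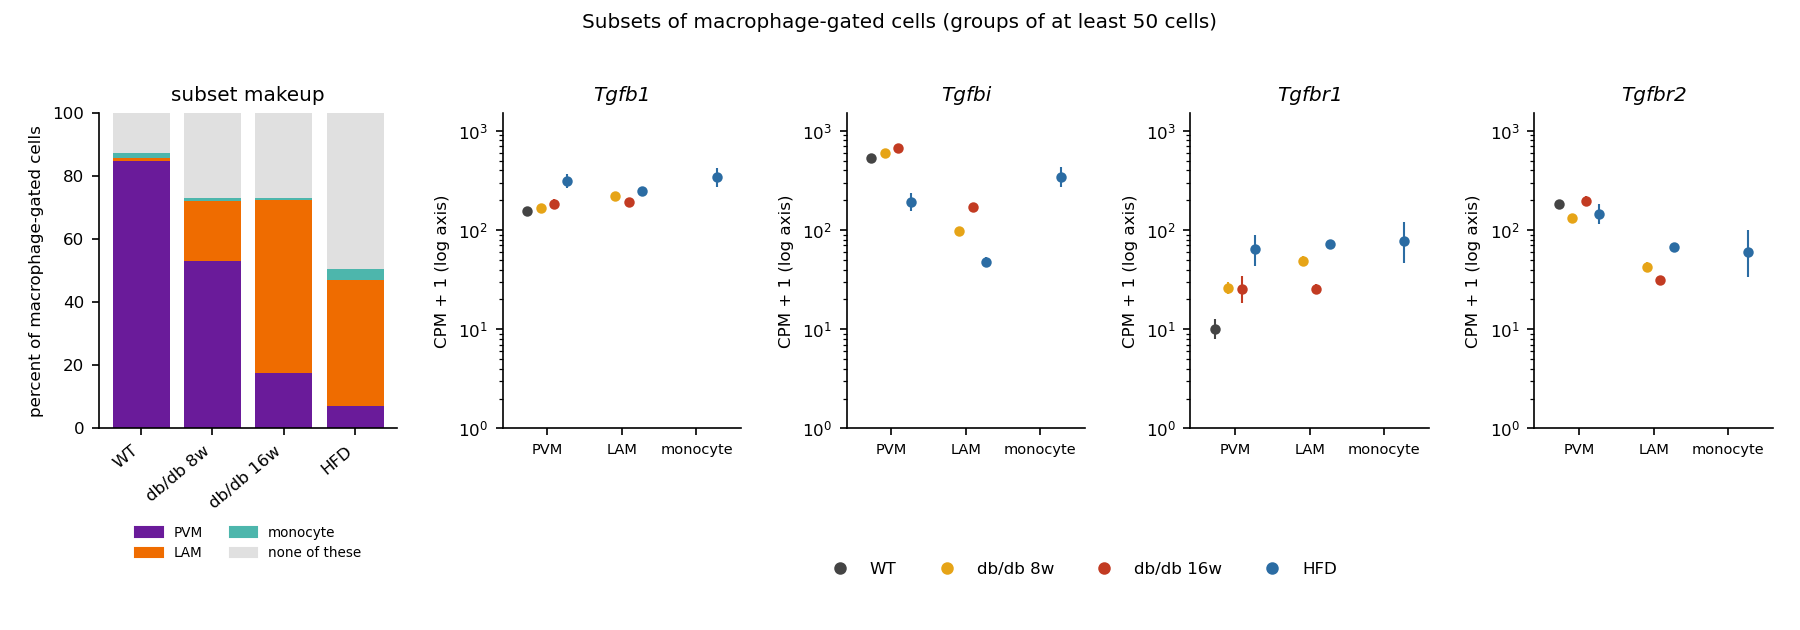
Left, share of macrophage-gated cells by subset and library. Right, levels of 4 genes in PVM, LAM and monocyte gates (CPM + 1, log axis, 95% Poisson bars, groups of at least 50 cells). Tgfb1 differed little between PVMs and LAMs, and Tgfbi and Tgfbr2 stood lower in LAMs than in PVMs in the 3 libraries that hold both.

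Tgfb2 and Tgfb3, the other ligand genes, were stromal. Tgfb2 stood at 60.5 CPM in WT (57.9 to 63.2), 45.7 in 8-week db/db (43.2 to 48.3), 66.3 in 16-week db/db (58.7 to 74.6) and 47.3 in HFD (42.6 to 52.3) in stromal cells. Tgfb3 stood at 30.9, 34.3, 28.1 and 28.4 CPM there. The 4 libraries lay close together for both, and no ratio to WT left the range from -0.41 to 0.15 on the log2 scale. In macrophages both genes were between 0.111 and 3.84 CPM, which is 0.167% to 8.40% of the stromal level of Tgfb2 and 1.18% to 5.69% of that of Tgfb3. The 5 stromal check markers stood in macrophages at 2.44% (WT), 1.47%, 0.0981% and 1.01% of their stromal level. As point values both genes were above the share of those markers in each library, without regard to counting intervals. The macrophage values rest on 15, 76, 2 and 10 UMIs of Tgfb2 and 10, 18, 6 and 20 of Tgfb3, in the order of WT, 8-week db/db, 16-week db/db and HFD. The part of stromal RNA in these low macrophage levels was not tested. Endothelial Tgfb2 was 61.6 CPM in 8-week db/db (30.8 to 110.3, from 11 UMIs), 4.28 in 16-week db/db and 11.8 in HFD.

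The even stromal level of Tgfb2 covered a shift between subsets. Progenitors (gated on Pi16, Dpp4 and other genes of early adipogenic cells) held 71.1 CPM of Tgfb2 in WT (67.7 to 74.7), 50.7 in 8-week db/db and 58.8 in HFD. Committed preadipocytes (gated on Pparg, Col15a1, Col4a1 and Col4a2) held 26.9 CPM in WT (21.3 to 33.4), 48.2 in 8-week db/db (44.0 to 52.7), 65.6 in 16-week db/db (57.5 to 74.5) and 44.7 in HFD (39.0 to 51.0). Committed cells thus stood above those of WT by 1.79-, 2.44- and 1.66-fold, with 335 cells behind the WT value, while progenitors stood at 0.713 times (8-week db/db) and 0.826 times (HFD) the WT level. The same cells showed the higher Tgfb1: committed preadipocytes stood at 17.5, 34.2, 49.8 and 51.4 CPM in WT, 8-week db/db, 16-week db/db and HFD, so the stromal difference in Tgfb1 was present inside this subset at 1.96-, 2.85- and 2.94-fold. In progenitors Tgfb1 was 11.3 CPM in WT, 20.9 in 8-week db/db and 20.1 in HFD.

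Ltbp4 encodes a latent TGF-beta binding protein that also serves elastic fibre assembly. In stromal cells it stood at 52.6 CPM in WT (50.2 to 55.1), 114 in 8-week db/db (109.6 to 118), 91.2 in 16-week db/db (82.3 to 100.9) and 90.1 in HFD (83.6 to 96.9), so the WT library was lowest and its interval met none of the others. In endothelial cells it stood at 347 CPM in 8-week db/db (266 to 445), 97.1 in 16-week db/db (82.6 to 113) and 283 in HFD (269 to 297). Endothelial cells were above stromal cells by 3.14-fold in HFD, and in 16-week db/db the interval of the log2 ratio, -0.19 to 0.36, included 0. The 8-week db/db ratio of 3.06-fold rests on 81 cells, and without the deepest cells its log2 value came to 0.42. Macrophages held 0.609 to 8.89 CPM, 0.668% to 9.87% of the stromal level. Among the stromal subset gates Ltbp4 was highest in fibroblasts gated on Cilp, Eln and Apod, at 283 CPM in WT (235 to 338) and 288 in 8-week db/db (249 to 331), where committed cells held 64.8 and 67.4 CPM and progenitors 22.5 and 55.3. These fibroblasts numbered 55 in WT, 182 in 8-week db/db, 8 in 16-week db/db and 7 in HFD. They held 124 of the 1809 stromal Ltbp4 UMIs in WT and 200 of 3004 in 8-week db/db. Stromal cells in none of the subset gates made up 25.5% (WT), 38.0% (8-week db/db), 18.5% (16-week db/db) and 31.8% (HFD), and no level is given for them. Between committed cells the 4 libraries hardly differed, with log2 ratios to WT of 0.06, 0.19 and 0.28, while progenitors of 8-week db/db stood 2.45-fold above those of WT. The same fibroblasts held 107 CPM of Tgfb3 in WT and 83.5 in 8-week db/db, 3.51- and 2.93-fold above committed cells.

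Tgfbr2 encodes the type II receptor, which binds the ligand first. In stromal cells it stood at 605 CPM in WT (597 to 614), 412 in 8-week db/db (405 to 420.1), 159.6 in 16-week db/db (148 to 172) and 215 in HFD (205 to 225), and no 2 of these intervals overlapped. The levels were lower than in WT by 1.47-, 3.79- and 2.82-fold. The stromal subsets changed at the same time: progenitors made up 65.2% of stromal cells in WT, 25.5% in 8-week db/db, 1.95% in 16-week db/db and 10.0% in HFD, and committed preadipocytes 8.02%, 33.2%, 78.8% and 57.7%. Progenitors carried far more Tgfbr2 than committed cells, at 735 CPM in WT (724 to 746), 901 in 8-week db/db (878 to 924) and 735 in HFD (670 to 804), against 228, 173 and 144 CPM. Within progenitors the log2 ratio to WT was 0.29 (0.25 to 0.34) in 8-week db/db and 0.00 (-0.14 to 0.13) in HFD. Within committed cells it was -0.40 (-0.53 to -0.27), -0.65 (-0.81 to -0.48) and -0.66 (-0.82 to -0.51) in 8-week db/db, 16-week db/db and HFD, so none of these subset ratios passed 2-fold. The stromal progenitor gate of 16-week db/db held 22 cells, at 636 CPM (419 to 926).

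**Figure D3:**
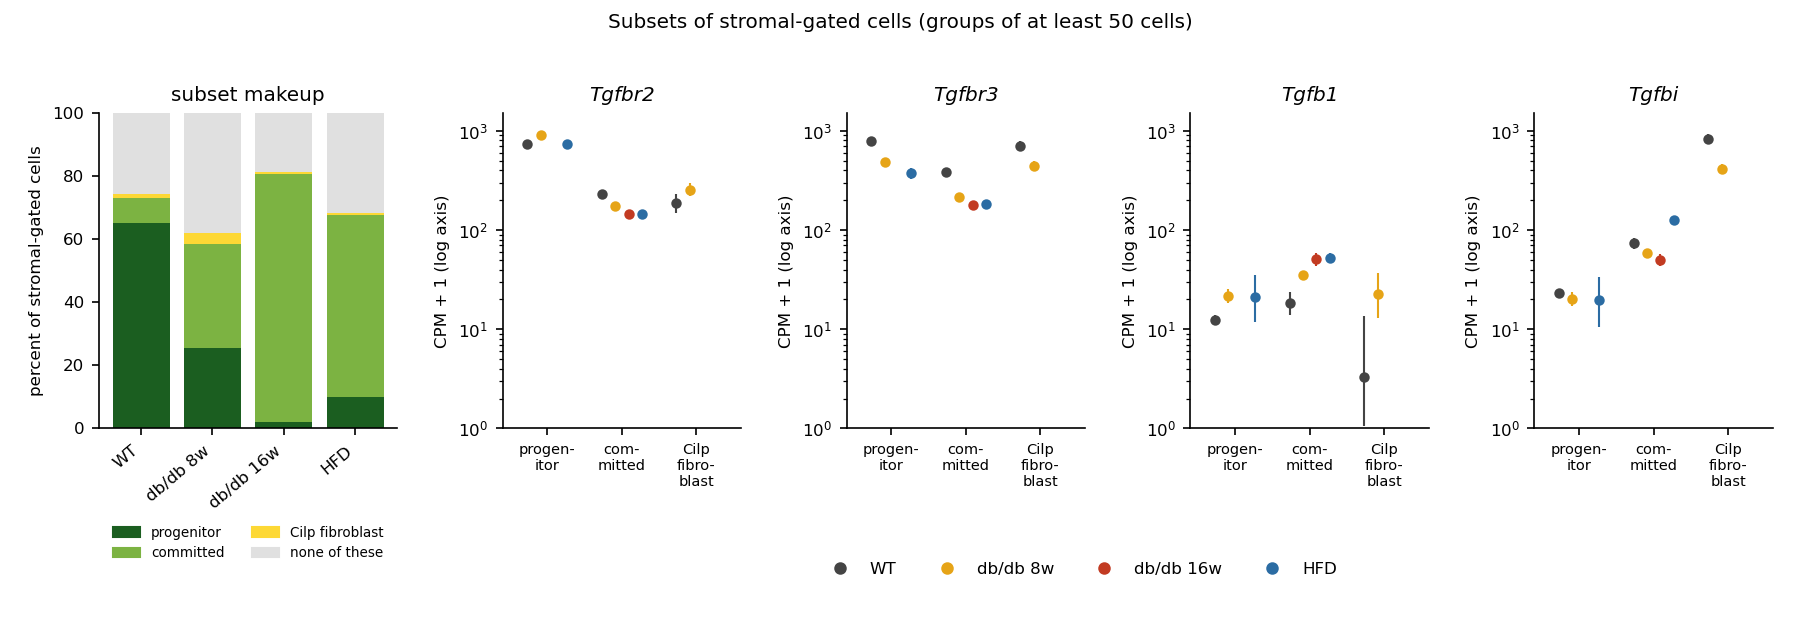
Left, share of stromal-gated cells by subset and library. Right, levels of 4 genes in progenitor, committed preadipocyte and Cilp fibroblast gates (CPM + 1, log axis, 95% Poisson bars, groups of at least 50 cells). Tgfbr2 stood at 735 to 901 CPM in progenitors and at 144 to 228 CPM in committed cells, Tgfbr3 was lower than WT in both, and Tgfbi was highest in Cilp fibroblasts.

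Tgfbr2 was also a vascular and macrophage gene. Endothelial cells stood at 566 CPM in 8-week db/db (461 to 688), 577 in 16-week db/db (541 to 615) and 172 in HFD (162 to 183), so the HFD library lay 1.247-fold below its own stromal cells while 16-week db/db lay 3.62-fold above them. Macrophages stood at 160.0 CPM in WT (152 to 169), 81.97 in 8-week db/db (78.0 to 86.1), 52.6 in 16-week db/db (49.3 to 56.1) and 80.8 in HFD (75.8 to 85.9). These were lower than in WT by 1.95-, 3.04- and 1.98-fold, and the macrophage subsets again divided. PVMs held 184, 132, 196 and 146 CPM, and LAMs held 41.5 in 8-week db/db, 30.1 in 16-week db/db and 66.7 in HFD, so LAMs stood below PVMs of the same library by 3.18-, 6.52- and 2.18-fold. Within PVMs the log2 ratio to WT was -0.48 (-0.60 to -0.36), 0.09 (-0.09 to 0.28) and -0.33 (-0.70 to 0.01).

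Tgfbr3 encodes betaglycan, a co-receptor that presents ligand, TGF-beta 2 above all, to the type II receptor. In stromal cells it stood at 724 CPM in WT (715 to 733), 336 in 8-week db/db (329 to 343), 206 in 16-week db/db (193 to 220) and 211 in HFD (201 to 222), which is lower than WT by 2.16-, 3.51- and 3.42-fold. The difference was present in committed cells of 3 libraries and in progenitors of 2. Progenitors stood at 785 CPM in WT, 483 in 8-week db/db and 371 in HFD, with log2 ratios of -0.70 (-0.76 to -0.65) and -1.08 (-1.27 to -0.90). The 22 progenitors of 16-week db/db stood at 895 CPM, with a ratio of 0.19 (-0.31 to 0.65). Committed cells stood at 386, 214, 179 and 182 CPM, with ratios of -0.85 (-0.96 to -0.75), -1.11 (-1.25 to -0.97) and -1.08 (-1.21 to -0.96). Endothelial cells were alike in the 3 libraries that hold them, at 174, 202 and 196 CPM. Macrophages stood at 26.7 CPM in WT, 9.29 in 8-week db/db, 3.27 in 16-week db/db and 10.3 in HFD, or 3.68%, 2.77%, 1.58% and 4.89% of the stromal level. The stromal check markers stood there at 2.44%, 1.47%, 0.0981% and 1.01%, so this percentage was highest in WT for the markers and in HFD for Tgfbr3. All 3 libraries of obese mice lay over 2-fold below WT, and the part of stromal RNA in these macrophage values was not tested.

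Tgfbr1 encodes the type I receptor, the kinase that passes the signal on. Its stromal level was the steadiest of the receptors, at 40.9 CPM in WT (38.8 to 43.1), 44.2 in 8-week db/db (41.7 to 46.8), 28.6 in 16-week db/db (23.7 to 34.2) and 46.4 in HFD (41.8 to 51.4). In macrophages it stood at 10.4 CPM in WT (8.36 to 12.8), 36.2 in 8-week db/db (33.6 to 39.0), 25.4 in 16-week db/db (23.1 to 27.8) and 68.3 in HFD (63.8 to 73.1), and the WT interval met none of the others. The macrophage level was thus 3.47-, 2.43- and 6.55-fold that of WT, the opposite direction to Tgfbr2, and it stayed past 2-fold under each of the 10 alternatives in each library, with log2 ratios between 1.21 and 3.76. It was present inside PVMs, at 9.10, 24.9, 24.4 and 62.7 CPM, or 2.73-, 2.68- and 6.89-fold. LAMs held 47.9, 24.7 and 71.1 CPM and differed from PVMs of the same library by 1.93-fold in 8-week db/db, 1.01-fold in 16-week db/db and 1.13-fold in HFD. Macrophages, at 25.5% of the stromal level in WT, reached 81.96%, 88.8% and 147% of it in the other libraries.

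Tgfbi encodes a secreted matrix protein named for its induction by TGF-beta, and is also a gene of monocytes and macrophages. In macrophages it stood at 505 CPM in WT (490 to 520.2), 341 in 8-week db/db (333 to 349), 251 in 16-week db/db (243 to 258) and 91.7 in HFD (86.5 to 97.2), and no 2 intervals overlapped. The log2 ratio to WT was -0.57 (-0.62 to -0.51), -1.01 (-1.07 to -0.95) and -2.46 (-2.56 to -2.37), or 1.48-, 2.01- and 5.50-fold lower. The HFD value stayed past 2-fold under all 10 alternatives (-2.88 to -1.85). The 16-week db/db value passed 2-fold by little and was under it in 7 of the 10, down to -0.31 with thinned cells. The subsets give 2 different pictures. In PVMs Tgfbi stood at 532 CPM in WT (515 to 550), 592 in 8-week db/db (575 to 609), 669 in 16-week db/db (628 to 711) and 190 in HFD (154 to 233), so both db/db libraries were slightly above WT (1.11- and 1.26-fold) and HFD was 2.80-fold below. In LAMs it stood at 96.8, 170 and 46.4 CPM, lower than in PVMs of the same library by 6.11-fold in 8-week db/db, 3.93-fold in 16-week db/db and 4.09-fold in HFD. Among db/db macrophages the lower total went with the share of LAMs, and in HFD it was present within PVMs as well. In HFD the LAM and PVM gates held 311 and 94 of the 1135 macrophage Tgfbi UMIs. No Tgfbi level is given for macrophages in none of the subset gates. LAM-gated cells were deeper than PVM-gated cells, with median UMIs of 9656 against 4184 in 8-week db/db, 8353 against 2950 in 16-week db/db and 8349.5 against 3780 in HFD. The part of depth in these subset values was not tested.

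Stromal Tgfbi did not follow the macrophage pattern. It stood at 75.6 CPM in WT, 88.0 in 8-week db/db, 60.3 in 16-week db/db and 137 in HFD. The 16-week value lay below WT (log2 ratio -0.33) but above it in 3 of 10 alternatives, up to 0.45 with the mean of per-cell CPM. The highest stromal level was in the library with the lowest macrophage level. Macrophages were above stromal cells by 6.67-, 3.88- and 4.16-fold in the first 3 libraries and 1.496-fold below them in HFD. Within the stroma Cilp fibroblasts held 829 CPM in WT (746 to 919) and 410 in 8-week db/db (364 to 461), above the level of macrophages in both libraries. These were 55 and 182 cells, with 363 of the 2600 stromal Tgfbi UMIs in WT and 285 of 2327 in 8-week db/db. No level is given for stromal cells in none of the subset gates. Committed cells held 72.6, 57.1, 49.0 and 125 CPM, and progenitors 22.2 CPM in WT, 19.1 in 8-week db/db and 18.6 in HFD. Endothelial cells held 7.94 to 11.2 CPM, 3.17% to 11.6% of the macrophage level, against 1.66% to 4.13% for the macrophage check markers.

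Smad7 encodes the inhibitory SMAD that TGF-beta induces and that ends the signal at the type I receptor, and spans chr18:75367529-75395935 on the plus strand. T and NK cells held its highest level, at 524 CPM in 8-week db/db (447 to 611) and 80.7 in 16-week db/db (41.7 to 141), and the 27 WT and 30 HFD cells of this gate held 349 CPM (263 to 455) and 170 CPM (95.2 to 280.5). Endothelial cells stood at 118 CPM in 8-week db/db (72.9 to 179.9), 49.5 in 16-week db/db (39.3 to 61.5) and 143 in HFD (133 to 153), and stromal cells at 83.5 in WT, 63.7 in 8-week db/db, 25.9 in 16-week db/db and 76.2 in HFD. The 16-week db/db library was lowest in each of these 3 lineages. Its stromal level was 3.22-fold below WT (log2 ratio -1.69, -1.98 to -1.41), and within committed cells it was 26.0 CPM against 61.8 in WT (-1.25, -1.62 to -0.88). Endothelial cells exceeded stromal cells of the same library by 1.85-fold in 8-week db/db (log2 ratio 0.89, 0.19 to 1.503, from 21 endothelial UMIs), 1.91-fold in 16-week db/db (0.93, 0.50 to 1.36) and 1.87-fold in HFD (0.91, 0.75 to 1.06). Macrophages held 8.25 to 17.5 CPM, under the 20 CPM asked of a called gene.

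**Figure D4:**
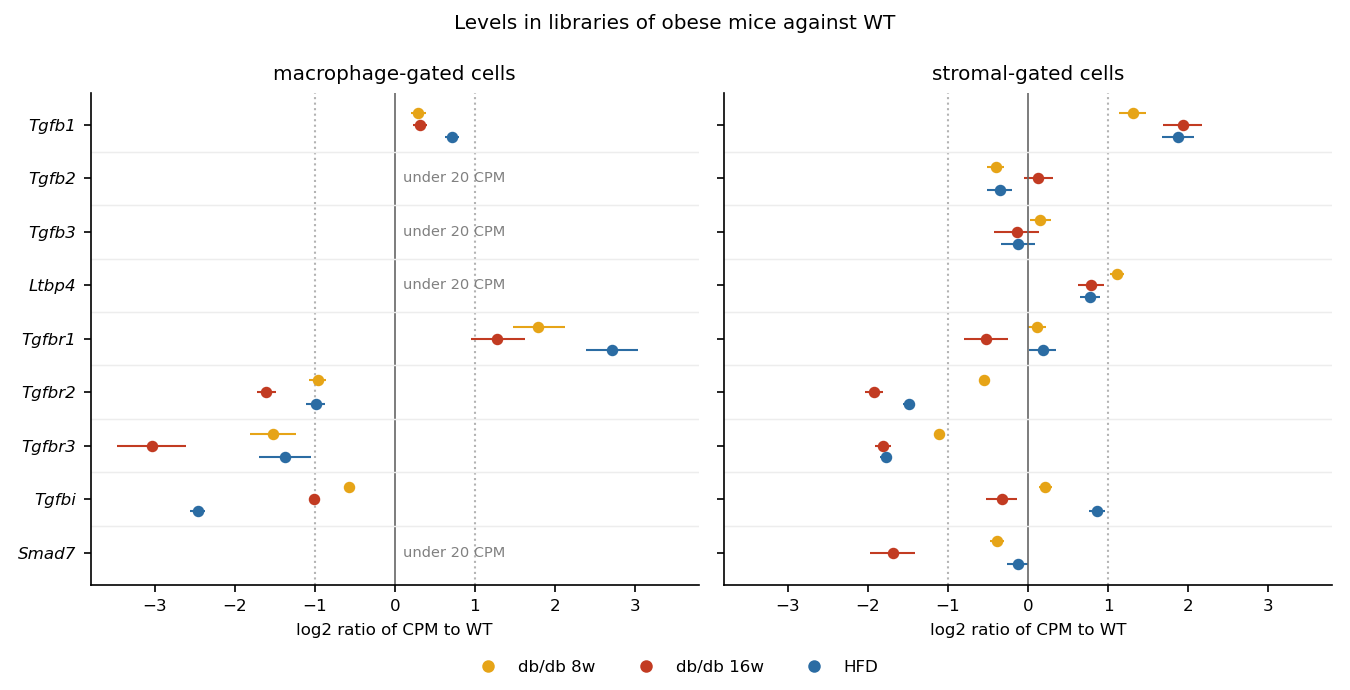
Log2 ratio of the level in each library of obese mice to that in WT, for macrophages (left) and stromal cells (right), with 95% counting intervals. Dotted lines mark 2-fold, and genes under 20 CPM in both libraries are not drawn. In macrophages Tgfbr1 lies to the right and Tgfbr2, Tgfbr3 and Tgfbi to the left in 3 of 3 libraries, and in stromal cells Tgfb1 lies to the right and Tgfbr2 and Tgfbr3 to the left.

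Counted together, the calls against WT were partly shared between the libraries. In macrophages 5 of the 9 genes reached 20 CPM. Of these, 1 was higher and 1 lower by 2-fold in 8-week db/db, where 5.69% of all genes tested were higher and 5.55% lower, 1 was higher and 3 lower in 16-week db/db (22.5% and 25.8% of all genes), and 1 was higher and 2 lower in HFD (14.3% and 11.0%). In stromal cells all 9 reached 20 CPM, with 2 higher and 1 lower in 8-week db/db (3.63% and 2.87% of all genes), 1 higher and 3 lower in 16-week db/db (12.9% and 14.9%) and 1 higher and 2 lower in HFD (9.1% and 7.87%). The 3 comparisons share the WT library. Tgfbr1 was the gene higher in macrophages and Tgfbr3 was among the lower ones in 3 of 3 libraries, and Tgfb1 was higher in stromal cells in 3 of 3. Each of these passed the 20 CPM filter through the group where it was high (Tgfbr1 and stromal Tgfb1 were under it in WT, Tgfbr3 in the libraries of obese mice), so the filter fixed the direction of their calls and the counts are a description. In macrophages of 16-week db/db nearly as many genes of any kind passed 2-fold as did not, so the count there says little about these genes. Between macrophages and stromal cells of the same library the split was uneven: 2 genes were higher in macrophages and 7 lower in WT (19.1% and 23.6% of all genes), 2 and 6 in 8-week db/db (18.2% and 23.2%), 2 and 6 in 16-week db/db (18.8% and 27.1%) and 1 and 6 in HFD (18.0% and 21.6%). Over the 9 genes the median of this log2 ratio came to -2.94, -2.33, -1.65 and -2.49, where that of all genes lay between -0.13 and 0.02. Endothelial cells against stromal cells gave 2 genes higher and 2 lower in 8-week db/db (26.8% and 21.1% of all genes), 1 and 3 in 16-week db/db (19.9% and 23.3%) and 2 and 3 in HFD (18.3% and 16.3%). Against macrophages they gave 5 higher and 1 lower of 8 in 8-week db/db (34.9% and 22.3%), 4 and 2 of 7 in 16-week db/db (31.9% and 26.8%) and 4 and 1 of 7 in HFD (25.7% and 17.7%), the higher ones in HFD being Ltbp4, Tgfbr2, Tgfbr3 and Smad7.

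The share of each gene's molecules found in a lineage differed between the libraries. Macrophages held 18.7% of all UMIs in WT, 37.1% in 8-week db/db, 68.0% in 16-week db/db and 37.9% in HFD. In the same order stromal cells held 76.3%, 49.5%, 15.7% and 24.4% of all UMIs and endothelial cells 0.0580%, 0.334%, 6.16% and 17.9%. Cells with markers of more than 1 lineage held 3.42%, 9.74%, 5.94% and 18.5%. Macrophages held 65.3% of the 2061 Tgfb1 UMIs in WT, 68.9% of 5626 in 8-week db/db, 83.0% of 4329 in 16-week db/db and 53.9% of 6015 in HFD, where endothelial cells held 19.2%. Stromal cells held 96.2% of Tgfb2 UMIs in WT, 85.8% in 8-week db/db, 90.2% in 16-week db/db and 68.4% in HFD. For Ltbp4 the stromal share was 97.2%, 89.4%, 61.2% and 21.9%, and the endothelial share 0.322%, 1.85%, 25.6% and 50.6%. Cells with markers of more than 1 lineage held 23.7% of Ltbp4 and 16.8% of Tgfbr2 UMIs in HFD, against 1.83% and 1.97% in WT. Stromal cells held 91.7% of the 22695 Tgfbr2 UMIs in WT, 79.3% of 13737 in 8-week db/db, 22.9% of 2907 in 16-week db/db and 38.0% of 4499 in HFD, while macrophages went from 5.95% in WT to 11.8%, 32.7% and 22.2%. For Tgfbr1 macrophages held 5.71% of 1541 UMIs in WT and 33.7%, 70.0% and 50.1% in the others. Such shares join the level in a cell with the number of cells recovered, which 1 library per group cannot tell apart from the preparation.

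**Figure D5:**
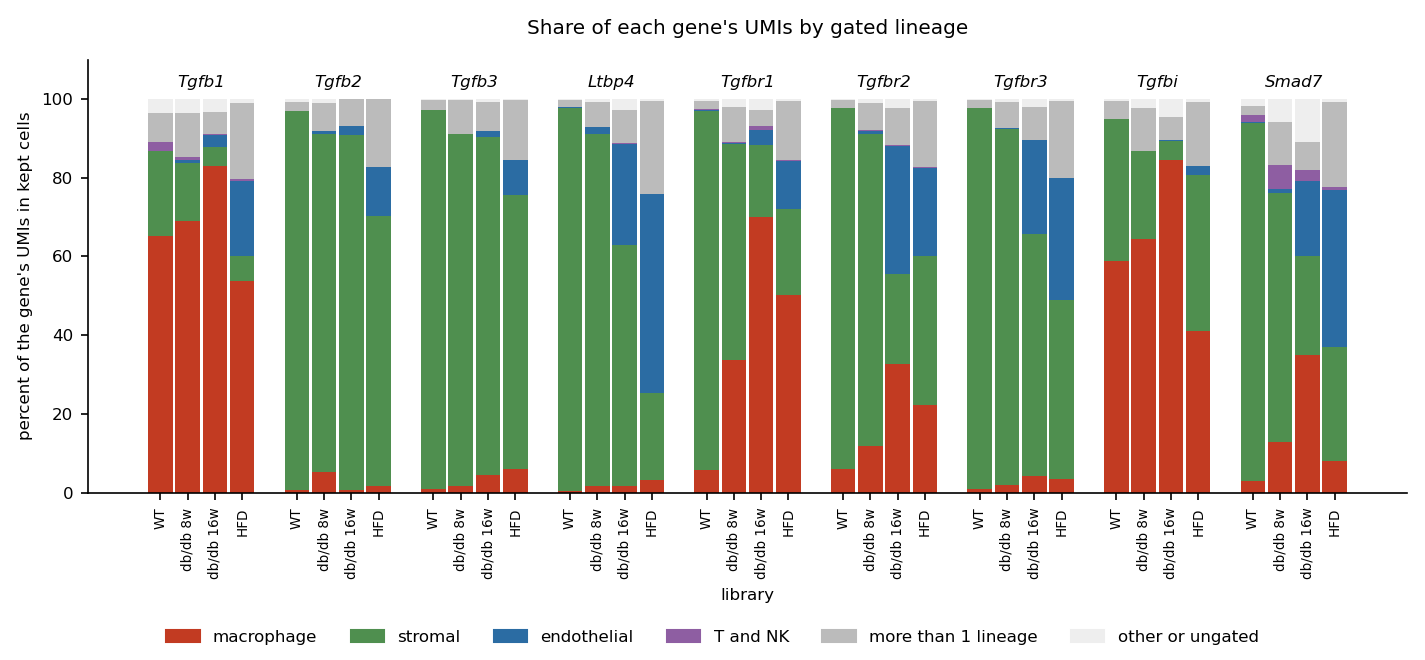
Percent of the UMIs of each gene in kept cells that fell in each gated lineage (colours), for the 4 libraries of each gene. Bars sum to 100%. Macrophages hold 53.9% to 83.0% of Tgfb1, stromal cells 68.4% to 96.2% of Tgfb2, and the macrophage part of Tgfbr1 grows from 5.71% in WT to 70.0% in 16-week db/db.

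Other genes of the pathway were 40 in a list of latency, activation, co-receptor, SMAD and target genes. Of 37 that reached 20 CPM in a group, 19 had their highest level in stromal cells (20.2% of all genes) and 9 in endothelial cells (24.5%). Neutrophils held the highest level of 6 (17.8%), macrophages of 2 (15.4%) and T and NK cells of 1 (22.2%). Against WT, 4 of 19 measured in macrophages were higher by 2-fold and 0 lower in 8-week db/db, 2 were higher and 8 lower of 17 in 16-week db/db, and 8 were higher and 2 lower of 21 in HFD. In stromal cells 7 were higher and 0 lower of 32 in 8-week db/db, 8 and 5 of 34 in 16-week db/db, and 5 and 1 of 31 in HFD. Of all genes tested in macrophages, 5.69% were higher and 5.55% lower in 8-week db/db. The shares were 22.5% and 25.8% in 16-week db/db and 14.3% and 11.0% in HFD. For stromal cells they were 3.63% and 2.87%, 12.9% and 14.9%, and 9.1% and 7.87% in the same order.

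Among latency genes, Nrros, which holds latent TGF-beta 1 on the macrophage surface, was a macrophage gene at 246 CPM in WT, 151 in 8-week db/db, 74.4 in 16-week db/db and 145 in HFD, with log2 ratios to WT of -0.71, -1.73 and -0.76. Ltbp1, a binding protein of the matrix, stood in stromal cells at 211, 121, 51.9 and 129 CPM, lower than WT in 3 of 3, and Emilin1, an elastic fibre protein known to restrain processing of the TGF-beta precursor, stood higher, at 18.0, 44.0, 74.4 and 96.9 CPM. Among activators, Itgb5, an integrin chain that pairs with alpha v, stood in macrophages at 11.7, 34.0, 31.9 and 124 CPM, and Thbs1, which encodes thrombospondin 1, in stromal cells at 22.98, 196, 126 and 236 CPM. Both were higher than WT by over 2-fold in 3 of 3 libraries, while Thbs1 in macrophages was lower in 16-week db/db and HFD (172, 181, 18.4 and 45.8 CPM). The named genes were picked by the size of their ratios in these same libraries. Itgb5 and Emilin1 also stood under the 20 CPM limit in WT, so the filter fixed the direction of their calls. These values are a description. Smurf2, a ubiquitin ligase that acts with SMAD7 on the receptor, stood in stromal cells at 142, 92.9, 34.6 and 81.1 CPM.

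Of the 12 target genes in the list, 9 were measured in stromal cells of 8-week db/db, 4 higher by 2-fold and 0 lower (3.63% and 2.87% of all genes). In 16-week db/db 4 were higher and 1 lower of 11 (12.9% and 14.9%), and in HFD 3 and 1 of 9 (9.1% and 7.87%). In macrophages of 8-week db/db 2 were higher and 0 lower of 4 (5.69% and 5.55%). There 16-week db/db gave 0 and 2 of 3 (22.5% and 25.8%) and HFD 3 and 0 of 5 (14.3% and 11.0%). With so few genes measured, these counts are a description. Measured targets had a median ratio to WT, on the log2 scale, of 0.97, 0.02 and 0.60 in stromal cells and 0.90, -1.15 and 1.03 in macrophages, beside 0.03, 0.01 and 0.09 and 0.05, -0.10 and 0.21 for all genes. Postn, a matrix protein, stood in stromal cells at 240.5 CPM in WT, 810.1 in 8-week db/db, 2147 in 16-week db/db and 962 in HFD, and Tnc, another, at 0.582, 22.8, 176 and 56.0 CPM, both higher than WT by over 2-fold in 3 of 3. Both were picked by the size of these ratios. Tnc was also under the 20 CPM limit in WT, so the filter fixed the direction of its calls. Fn1, which encodes fibronectin, stood there at 2147, 1738, 525 and 1068 CPM, below WT by over 2-fold in 16-week db/db and HFD. Ccn2 stood at 23.6, 134, 17.0 and 40.9 CPM, above WT in 2 libraries and below it in 16-week db/db. Skil, a SMAD repressor that is itself a target, followed no single direction in macrophages, at 60.4, 97.3, 20.3 and 123 CPM. Aldh1a1, which encodes an enzyme that makes retinoic acid, stood in stromal cells at 117, 78.7, 129 and 78.6 CPM and in macrophages at 0.277 to 4.38 CPM. Mature adipocytes are not part of this fraction, so neither gene group was measured in them.

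For each of the 9 genes the 3 most alike were taken by Pearson's r over 14 groups of a lineage in a library, among 10117 genes. Tgfb3 was most like Rhobtb3 (r = 0.99), Ebf2 (0.989) and Sema5a (0.987), and Tgfbr3 like Thra, Plpp3 and Abca5 (0.9798 to 0.984). Tgfb2 was most like Phldb1, Grb10 and Nectin3, Ltbp4 like Enah, Nbea and Fermt2, Tgfbr2 like Glce, Scmh1 and Ackr3, and Smad7 like 2510002D24Rik, 4930523C07Rik and Aak1. Tgfbi was most like Slc31a1, Fam234a and Prxl2b (0.909 to 0.927). Tgfbr1 had no close match, with Diablo at 0.758, Igf2bp2 at 0.736 and Atad1 at 0.726. The groups of 1 library share their depth and preparation, and these values are a description.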

How the data were processed

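Gene-by-cell matrices of 4 single-cell libraries were used as deposited. Their values are raw UMI counts, which the authors made with Cell Ranger on the mm10 genome (6.0.0 in the matrix headers, 7.1.0 in the processing notes), with no normalization. Kept barcodes had a mitochondrial share below 15%, between 250 and 6000 detected genes and a UMI total between 500 and 30000, and no doublet caller was run. A cell entered a lineage with at least 3 UMIs from at least 2 of its markers, when each of the other 10 lists summed to at most 0.25 of that. Cells with markers of more than 1 lineage were set apart. Subsets needed 2 UMIs. UMIs were summed per gate and given as CPM of all UMIs of the gate, with exact Poisson intervals, and ratios with exact conditional binomial intervals (95%, counting error only). A gene was called at 2-fold with at least 20 CPM in a group. All 9 genes are named, and Aldh1a1 was named besides. Pathway genes are named up to 4 per list and lineage. Each was ranked by its smallest absolute log2 ratio over the libraries of obese mice, and those with the largest such value were named. The genes and lists were chosen with earlier results of these data known. Scripts were tested on simulated data and used python 3.11.15, numpy 2.4.6, scipy 1.17.1, pandas 2.3.3 and matplotlib 3.10.9. Alternatives were other gates, filters, weightings and scalings of cells. The genes most like Tgfb1 are not reported here.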

Additional observations from a re-analysis of the deposited data

How the results depend on the processing

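Values are log2 ratios, in the order of the libraries named. No direction reversed for Tgfb1 in macrophages over stromal cells or for Tgfb1 and Tgfbi in macrophages against WT. The uncalled ratio of stromal Tgfbi to WT in 16-week db/db, -0.33, ran from -0.64 to 0.45 and so changed sign. Other uncalled ratios did so too. In stromal cells of HFD they were Tgfb3 (-0.38 to 0.20), Tgfbr1 (-0.10 to 0.41) and Smad7 (-0.73 to 0.18). In macrophages, where these genes were under 20 CPM, they were Tgfb2, Tgfb3 and Ltbp4 in 8-week db/db and Tgfb3 and Smad7 (-0.95 to 0.53) in HFD. For the macrophage ratios and the counts of genes by highest lineage, 47 of 151 alternative values were marked as moved and 104 were not. A ratio was marked when it left its counting interval. The counts have no such interval: a shift from 2 to 1 in macrophages was marked, and a shift from 4 to 3 in stromal cells was not. For Tgfb1 in macrophages over stromal cells, HFD gave 2.63 with cells thinned to 1000 UMIs, 2.67 with the mean of per-cell CPM, 2.29 with no marker UMI of another lineage and 2.66 without the deepest 10% of cells, 16-week db/db gave 2.35 with thinned cells, and 8-week db/db gave 2.44 with the per-cell mean and 2.88 with no other marker. For Tgfb1 in macrophages against WT, 8-week db/db gave 0.024 thinned, 0.18 per cell, 0.51 with no other marker and 0.17 without the deepest cells. In 16-week db/db it was 0.41 centred on the median of all genes, 0.44 per cell, 0.46 with no other marker, 0.44 without mitochondrial and ribosomal genes and 0.43 without the deepest cells, and in HFD 0.51 centred and 0.85 with no other marker. For Tgfbi in macrophages against WT, 8-week db/db gave -0.13 thinned, -0.19 per cell, -0.62 with a mitochondrial share under 10%, -0.64 without nuclear-RNA-rich cells and -0.16 without the deepest cells. In 16-week db/db it was -0.31 thinned, -0.92 centred, -0.40 per cell, -0.75 with no other marker, -0.89 without mitochondrial and ribosomal genes, -1.08 without nuclear-RNA-rich cells and -0.61 without the deepest cells. In HFD it was -2.22 with all barcodes, -1.85 thinned, -2.67 centred, -2.00 per cell, -2.88 with a mitochondrial share under 10%, -2.17 with no other marker and -2.11 without the deepest cells. The count of genes highest in macrophages was 1 with all barcodes, a mitochondrial share under 10%, no other marker and a stricter gate, that in endothelial cells was 1 without the 16-week db/db library, and that in neutrophils was 1 with all barcodes, no other marker, a stricter gate and without the deepest cells, and 2 with a mitochondrial share under 10%. The cause was not tested. The alternative without nuclear-RNA-rich cells was chosen after seeing the data. Of 19 calls against WT, 17 to 19 stayed past 2-fold and 0 changed sign. Besides those given with the results, calls under 2-fold were Tgfb1 (0.97, thinned) and Tgfbr3 (-0.99, no other marker) in stromal cells of 8-week db/db. Between lineages they were Tgfb2 in endothelial over stromal cells of HFD (-0.53) and Smad7 in endothelial cells over macrophages of 8-week db/db (0.87), both with no other marker, Ltbp4 in endothelial over stromal cells of 8-week db/db in 4 alternatives (0.42 to 0.74), and Tgfbr2 in endothelial cells over macrophages of HFD in 3 (0.742 to 0.998). No paired analysis was possible because each group has 1 library. Mice were pooled, so the spread between mice is not known, and groups of under 100 cells limit the endothelial and T and NK values most.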
